A study of Tabanus nipponicus with 3 samples.

Results

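Heat shock proteins and other chaperones were described in the midgut of the blood-feeding horse fly Tabanus nipponicus. They were 63 of the 8039 unigenes, transcripts assembled from the reads without a genome. A unigene was included when the first listed name of its best protein hit held a chaperone word: heat shock, hsp, alpha-crystallin, dnaJ, T-complex protein 1, prefoldin, chaperonin, BAG family, hypoxia up-regulated, activator of 90 kDa or peptidyl-prolyl cis-trans isomerase. Names holding endoplasmin or ribosomal were left out. Membership and classes therefore rest on names borrowed from other species, 40 of them from the black soldier fly Hermetia illucens, with a median of 78.3% identical residues (47.8% to 96.0%). Members named BAG family, alpha-crystallin, hypoxia up-regulated or activator of 90 kDa were not found. The rule also kept T-complex protein 11-like protein 1 (TRINITY_DN179_c0_g1_i10), which is no chaperonin subunit and was counted apart, at 31.9, 37.9 and 20.6 FPKM in flies 1, 2 and 3.

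All 3 libraries came from adult females of wild type caught in the wild, with the midgut of 1 fly in each, and formed 1 group without a treatment or a control. The sources used here do not give feeding state or age. The labels call the flies biological replicates. With 1 library a fly, the spread below holds differences between individuals and those of sample handling and sequencing, which cannot be told apart. Values are FPKM, read numbers scaled to transcript length and to depth, so levels of different unigenes can be set side by side within a fly. In these whole tissues, fewer cells of a type and less RNA per cell cannot be told apart.

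Chaperones bind proteins that are unfolded or still being made and help them fold, travel or be degraded. In insects the HSP70 family includes inducible members, made in large amounts after heat and other stress, and cognate members (HSC70), made at all times. HSP70 works with dnaJ proteins, which bring it clients and start its ATP cycle, and with HSP110 proteins, which release its nucleotide. HSP90 finishes the folding of many signalling proteins, small HSPs hold unfolded proteins, and the ring-shaped chaperonins enclose them, T-complex protein 1 in the cytosol and HSP60 with its lid HSP10 in mitochondria. Drosophila studies link these genes in the gut to heat, infection and oxidative stress.

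The recovered depth was 29308867 to 33797869 reads a fly. Dividing FPKM by median-of-ratios factors, which use the bulk of unigenes in place of the total, meant dividing by 0.965, 0.828 and 1.25 in flies 1, 2 and 3. As deposited, the median unigene averaging 1 FPKM or more stood -0.05, -0.33 and 0.42 from the mean of the other flies, on the log2(FPKM + 1) scale, in flies 1, 2 and 3. After scaling these shifts were 0.02, 0.01 and 0.00. The tissue label was checked with 61 unigenes matching midgut words such as trypsin, maltase and V-type proton ATPase, which summed to 14192 to 19292 FPKM. Of these, 3 were at 0 in fly 1, 3 in fly 2 and 0 in fly 3. Words for other tissues summed to 785 to 1565 FPKM for visceral muscle (21 unigenes), 7.08 to 97.6 for fat body (10, of which 1 was at 0 in fly 1) and 29.9 to 75.6 for hemocytes (4). They summed to 35.7 to 202 FPKM for Malpighian tubule (4), 9596 to 14150 for salivary gland (9) and 92.6 to 121 for neurons (15), while the single ovary name, a chorion protein, was at 3.28, 0 and 0 FPKM in flies 1 to 3.

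Chaperones were a small part of the midgut transcriptome in every fly. Of the summed FPKM, the 63 members took 1.35%, 0.961% and 1.32% in flies 1, 2 and 3, a mean of 1.21% ± 0.218 (SD, n = 3). Every member was above 0 in every fly, and 62 reached an FPKM of 1 in all 3. Their median level was 32.6 FPKM, against 8.69 FPKM for all unigenes. A mean of at least 100 FPKM was reached by 19 members, led by HSC70 cognate 4, an isomerase and the mitochondrial HSP10.

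The steepest difference between flies belonged to a stress-inducible name. HSP70-S1 (TRINITY_DN688_c0_g1_i3, 2644 bases), named after a soldier fly HSP70 with 88.1% identity over the whole of that protein, was at 524, 18.3 and 180 FPKM in flies 1, 2 and 3. Its highest and lowest flies were 27.2-fold apart in FPKM + 1. Fly 1 was 2.91-fold above fly 3, and fly 3 was 9.34-fold above fly 2. The lowest value rested on 1638 reads, with a counting error of 3.49%, while the coefficient of variation between flies was 107%. After median-of-ratios scaling the difference was 23.5-fold.

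A second inducible name, HSP70-S4 (TRINITY_DN688_c0_g2_i1), kept the same order at a far lower level, 5.22, 0.160 and 1.84 FPKM. In fly 2 it rested on 10 reads, with a counting error of 44.7%. The first unigene exceeded the second 101-fold, 115-fold and 97.3-fold in flies 1, 2 and 3. Both carry the same assembly cluster number, so the table cannot show how far they are separate genes or share reads, and their joint order is not independent evidence.

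Small HSP names were nearly missing from the table. The only one was heat shock protein 67B2 (TRINITY_DN2646_c0_g1_i2), at 7.48, 7.81 and 12.9 FPKM in flies 1, 2 and 3, with its highest value in fly 3. It did not follow the order of the HSP70-S names. In Drosophila the protein of this name resembles rhodanese enzymes more than the alpha-crystallin family, so no unigene with a sure small HSP name was found.

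Constitutive HSC70 was abundant and even. HSC70 cognate 4 (TRINITY_DN3123_c1_g1_i9), the main cytosolic HSP70 of unstressed Drosophila cells, was at 1834, 1408 and 1492 FPKM in flies 1, 2 and 3, a mean of 1578 ± 225 (SD, n = 3). It ranked 71 among all unigenes by level and held 21.6%, 23.1% and 17.6% of the members' FPKM. Its highest and lowest flies were 1.30-fold apart, or 1.59-fold after scaling, against 27.2-fold for HSP70-S1. HSC70 cognate 1 (TRINITY_DN3123_c0_g1_i3), which matched only 34.9% of its best hit, was at 4.95, 4.74 and 7.43 FPKM.

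HSP90 had the same order of flies as the HSP70-S pair. HSP83 (TRINITY_DN1028_c0_g1_i3), the cytosolic HSP90 of flies, which in Drosophila is made at all times and further induced by heat, was at 420, 77.4 and 170 FPKM in flies 1, 2 and 3. The difference of 5.36-fold between fly 1 and fly 2 became 4.61-fold after median-of-ratios scaling. Without fly 1 it was 2.19-fold and without fly 2 it was 2.45-fold. The unigene aligned to residues 1 to 276 of a protein of 717 residues, so it represents part of the transcript.

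HSP110, the heat shock factor and HSP70 protein 14 varied less than HSP83. The HSP110 unigene, named heat shock 70 kDa protein 4 (TRINITY_DN6571_c0_g1_i2), was at 190, 84.9 and 240 FPKM in flies 1, 2 and 3. Its 2.81-fold difference became 1.91-fold after median-of-ratios scaling. The heat shock factor (TRINITY_DN548_c0_g1_i10), the transcription factor that switches on HSP genes, was at 20.1, 18.0 and 24.8 FPKM, a 1.36-fold range. Its mRNA level says nothing of its activity, which in animals is set mainly on the protein. Heat shock 70 kDa protein 14 (TRINITY_DN3851_c0_g1_i7), a ribosome-associated relative in mammals, was at 6.07, 4.16 and 7.14 FPKM.

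**Figure D1:**
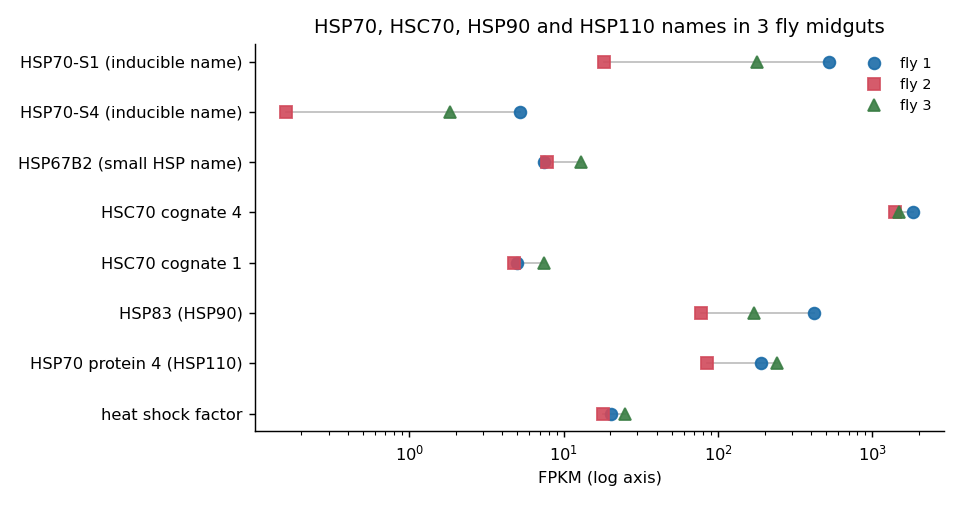
FPKM on a log axis of the HSP70, HSC70, HSP90 and HSP110 names and of the heat shock factor in flies 1, 2 and 3, with a grey line from the lowest to the highest fly. HSP70-S1 runs from 18.3 in fly 2 to 524 in fly 1, while HSC70 cognate 4 stays between 1408 and 1834.

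Inducible names were set against constitutive chaperones within each fly. The 3 inducible names (the HSP70-S pair and 67B2) summed to 537, 26.3 and 194 FPKM in flies 1, 2 and 3. The 41 constitutive names (HSC70, HSP83, HSP110, T-complex protein 1, prefoldin, mitochondrial and dnaJ names) summed to 5941, 4111 and 6176 FPKM. The ratio of inducible to constitutive names was therefore 0.0904, 0.00640 and 0.0314, which on the log2 scale averaged -5.25 ± 1.92 (SD, n = 3). This ratio moved 14.1-fold between flies, while the constitutive sum moved 1.5-fold. With HSP83 counted as inducible, an alternative chosen after seeing the data, the mean log2 ratio was -3.95. HSP70-S1 made up 524 of 537 FPKM of the inducible sum in fly 1, 18.3 of 26.3 in fly 2 and 180 of 194 in fly 3. Without the most abundant member of each class the log2 ratio averaged -8.35 with an SD of 0.047. With the median member of each class it averaged -1.96 with an SD of 0.22, so the 14.1-fold movement between flies was lost in both. In every fly 67B2 was the median inducible name, and the larger of those left without HSP70-S1. Without 67B2, an alternative added after seeing the data, the ratio averaged -5.46 with an SD of 2.18, so the movement remained.

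Single unigenes were also compared within flies, for 2 pairs. HSP70-S1 lay below HSC70 cognate 4 in 3 of 3 flies, 3.50-fold in fly 1, 76.8-fold in fly 2 and 8.31-fold in fly 3, with a mean log2 difference of -3.68 ± 2.26 (SD, n = 3; exact two-sided sign-flip permutation p = 0.25). HSP 67B2 lay below HSP83 in 3 of 3 flies, by a mean log2 difference of -4.14 ± 1.32 (SD, n = 3; exact permutation p = 0.25). With 3 flies 0.25 is the smallest p this test can give, and it was not adjusted over the 2 pairs.

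Counts past a fixed difference place these genes among all unigenes. With 1 library a fly such a difference has no replicate check. Of the 56 members averaging 5 FPKM or more, HSP70-S1 and HSP83 alone were at least 4-fold apart between their highest and lowest fly, which makes 2 members, or 3.57%, against 9.42% of 5256 unigenes. Their median difference was 1.63-fold, against 1.62-fold for all unigenes. A difference of at least 2-fold was reached by 13 members, or 23.2%, against 30.3% of unigenes. After scaling 10 members reached it, against 24.4% of unigenes.

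HSP70-S1 and HSP83 were both highest in fly 1 and lowest in fly 2. A 4-fold difference with the highest value in fly 1 was seen for 0.742% of unigenes, or 39 in all, among which HSP70-S1 held place 9 and HSP83 place 27 by size. With the lowest value in fly 2 as well, the share was 0.476%, or 25 unigenes. These places and shares describe genes already known to vary and are no test. Over all 5256 unigenes, whatever the highest fly, HSP70-S1 held place 74 and HSP83 place 372. Without fly 2 no member was 4-fold apart, against 5.45% of unigenes. Without fly 1 HSP70-S1 alone was, against 7.77%, and without fly 3 both were, against 3.08%, a share near that of the members.

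**Figure D2:**
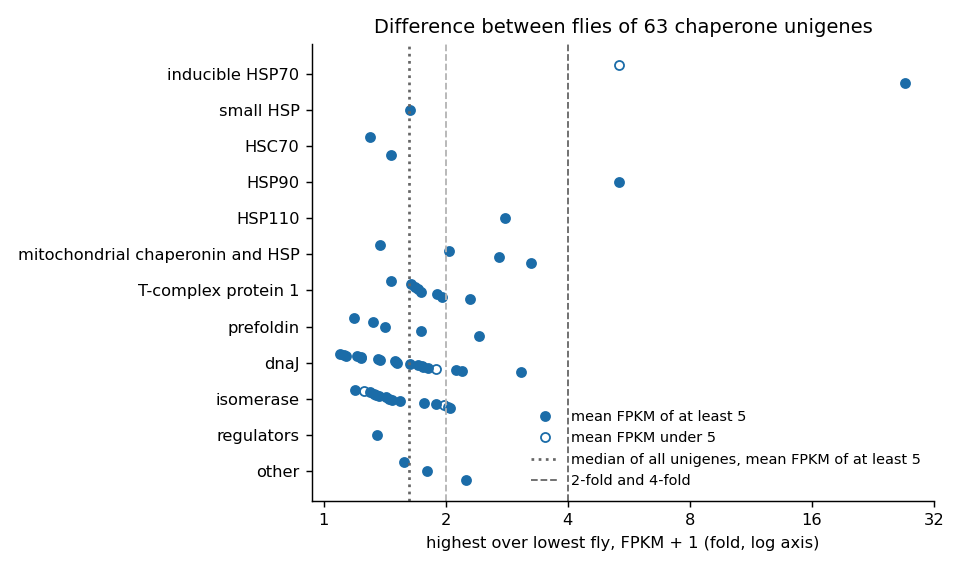
Highest over lowest fly, in FPKM + 1 on a log axis, for each of the 63 members by class, with filled points for a mean FPKM of at least 5 and open points below it. The dotted line marks the median of all unigenes with a mean of at least 5 (1.62-fold) and the dashed lines 2-fold and 4-fold, and only HSP70-S1, HSP70-S4 and HSP83 lie beyond 4-fold.

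Most members had their lowest value in fly 2. Of the 63 members, 47 were lowest in fly 2, against 57.5% of the 7384 unigenes averaging 1 FPKM or more, and 6 were lowest in fly 1, against 26.1%. Highest values followed the table, with 15 members in fly 1 (background 21.6%), 8 in fly 2 (12.4%) and 40 in fly 3 (66.1%). The combination of highest in fly 3 and lowest in fly 2 was held by 36 members, against 45.1% of unigenes, and that of highest in fly 1 and lowest in fly 2 by 11 members, against 12.4%, or by 17, against 10.6%, after scaling. The median shift of members was 0.09, -0.47 and 0.40 in flies 1, 2 and 3, beside the -0.05, -0.33 and 0.42 of all unigenes. After median-of-ratios scaling, 29 members were highest in fly 1 (26.6% of unigenes), 20 in fly 2 (33.7%) and 14 in fly 3 (39.7%), so the leading fly depended on the scaling. With that scaling 28 members were lowest in fly 2 (32.2% of unigenes), 27 in fly 3 (39.9%) and 8 in fly 1 (27.9%).

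The cytosolic chaperonin was complete in the table. All 8 subunit names of T-complex protein 1, which together form the double ring that folds actin and tubulin, were found, and each covered at least 93.1% of its best hit. Subunit gamma (TRINITY_DN3050_c0_g1_i1) was the most abundant in each fly, at 191, 140 and 244 FPKM in flies 1, 2 and 3. Theta (TRINITY_DN3552_c0_g1_i21) was at 133, 101 and 174 FPKM and beta (TRINITY_DN5025_c0_g1_i6) at 125, 102 and 168. Zeta (TRINITY_DN4053_c0_g1_i9) was the least abundant in each fly, at 34.5, 25.2 and 59.0 FPKM.

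As deposited, all 8 subunits were highest in fly 3 and lowest in fly 2, the commonest order in the table at 45.1% of unigenes. Their sum was 825, 608 and 1070 FPKM. Relative to the mean of the complex, gamma was at 1.86, 1.84 and 1.82 in flies 1, 2 and 3, the steadiest of the 8. Zeta was at 0.335, 0.331 and 0.441 of that mean and eta (TRINITY_DN1044_c0_g1_i11) at 0.952, 0.754 and 0.848, the least steady. The most abundant subunit exceeded the least abundant 5.55-fold, 5.56-fold and 4.13-fold, so the mRNA levels of the subunits were unequal in each fly. Between flies, alpha (TRINITY_DN1314_c0_g1_i3) differed least, 1.47-fold, followed by beta (1.64-fold) and delta (1.69-fold), and zeta (2.29-fold), eta (1.96-fold) and epsilon (1.91-fold) differed most. After scaling, 7 of 8 were still lowest in fly 2, against 32.2% of unigenes. The highest value then lay in fly 1 for 4 (26.6% of unigenes) and in fly 3 for 4 (39.7%), and all 8 differed by at most 1.53-fold.

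Prefoldin, which hands newly made actin and tubulin to T-complex protein 1, did not move as a unit. Subunits 2, 3, 4, 5 and 6 were found. Subunit 5 (TRINITY_DN4385_c0_g1_i6) was at 215, 200 and 181 FPKM and subunit 3 (TRINITY_DN13705_c0_g1_i2) at 156, 222 and 165 in flies 1, 2 and 3. Subunit 2 (TRINITY_DN6217_c0_g1_i5) was at 153, 92.4 and 225 FPKM. Fly 2 was thus highest for subunit 3 and lowest for subunit 2. Subunit 4 (TRINITY_DN5842_c0_g1_i22) was at 69.1, 68.7 and 91.3 FPKM and subunit 6 (TRINITY_DN66_c0_g1_i6) at 25, 17.8 and 31.7. The alpha-type subunits 3 and 5 stood at 1.51, 2.36 and 0.993 times the beta-type subunits 2, 4 and 6. Summed prefoldin stood at 0.750, 0.989 and 0.648 times summed T-complex protein 1.

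**Figure D3:**
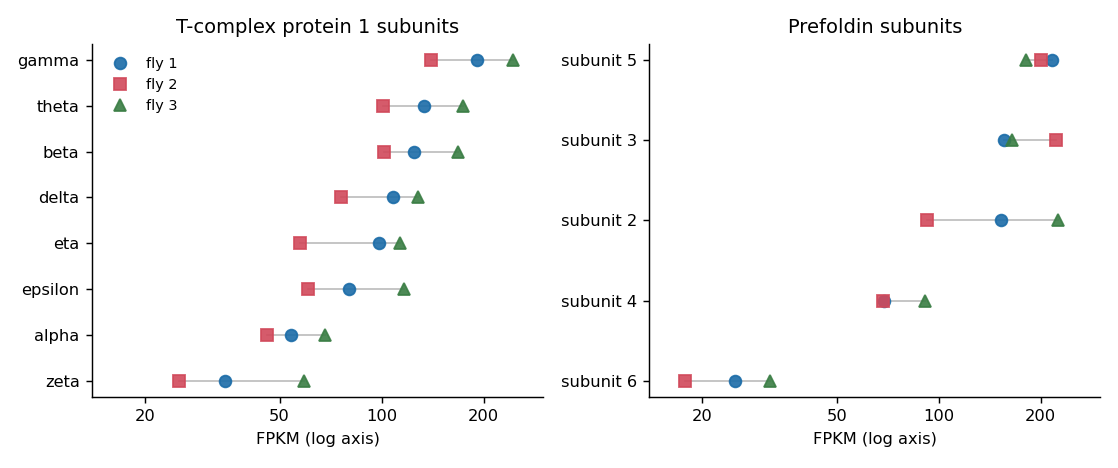
FPKM on a log axis of the 8 T-complex protein 1 subunits and the 5 prefoldin subunits in flies 1, 2 and 3, ordered by mean level, with a grey line from the lowest to the highest fly. Every T-complex subunit runs from fly 2 through fly 1 to fly 3, whereas prefoldin subunits 3 and 5 do not.

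As deposited, the 4 mitochondrial chaperones were lowest in fly 2 and highest in fly 3, an order held by 45.1% of unigenes. HSP10 (TRINITY_DN2813_c0_g1_i1), the lid of the mitochondrial folding chamber, was at 725, 340 and 1107 FPKM in flies 1, 2 and 3. HSP60A (TRINITY_DN513_c0_g1_i13), the chamber itself, was at 71.4, 40.2 and 111 FPKM. HSP10 thus stood at 10.2, 8.45 and 9.99 times HSP60A, a ratio that moved 1.20-fold while its members moved 3.25-fold and 2.71-fold. HSC70 cognate 5 (TRINITY_DN11776_c0_g1_i9), the mitochondrial HSP70 that pulls in imported proteins, was at 112, 83.3 and 171 FPKM. The mitochondrial HSP90 relative heat shock protein 75 kDa (TRINITY_DN187_c0_g1_i7), known as TRAP1, was at 20.6, 20.3 and 28.4 FPKM.

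The same 4 genes kept their lowest value in fly 2 for 3 of 4 after scaling, against 32.2% of unigenes. Those 3 were also highest in fly 3 then, against 39.7% of unigenes, while TRAP1 was highest in fly 2 and lowest in fly 1. HSP10 was then 2.15-fold and HSP60A 1.80-fold apart. Fly 3 also had the highest summed level of visceral muscle names, 1565 FPKM, against 788 in fly 1 and 785 in fly 2, with no muscle name at 0 in any fly. Of the 21 muscle names, 17 were highest in fly 3, against 66.1% of unigenes. After scaling the muscle sums were 817, 948 and 1250 in flies 1, 2 and 3. Of the names, 15 were then highest in fly 3, against 39.7% of unigenes, and 14 were lowest in fly 1, against 27.9%. Fat body names summed to 7.08, 24.7 and 97.6 FPKM in flies 1, 2 and 3. The part of other tissues in the fly 3 values was not tested.

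The dnaJ family was the largest, with 20 names spread from 3.21 to 604 FPKM on average. DnaJ A1 (TRINITY_DN8820_c1_g1_i13), a cytosolic partner of HSC70, led it at 694, 462 and 655 FPKM in flies 1, 2 and 3, and HSC70 cognate 4 exceeded it 2.64-fold, 3.05-fold and 2.28-fold. DnaJ C7 (TRINITY_DN3712_c1_g1_i14), which in mammals binds both HSP70 and HSP90, was at 99.8, 127 and 92.8 FPKM. The dnaJ shv (TRINITY_DN1262_c0_g1_i12), which in Drosophila works in the secretory pathway, was at 69.4, 38.0 and 40.6 FPKM, highest in fly 1.

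DnaJ protein homolog 1 (TRINITY_DN2268_c0_g1_i6), named for a heat-inducible dnaJ of Drosophila, ran against the HSP70-S names. It was at 3.41, 6.74 and 6.64 FPKM, lowest in fly 1, where HSP70-S1 was highest. Its counting error was up to 10.8%. This unigene was singled out after its values were seen. Within the dnaJ family 8 members were highest in fly 1, 4 in fly 2 and 8 in fly 3, against 21.6%, 12.4% and 66.1% of unigenes. After scaling these counts were 9, 9 and 2, against 26.6%, 33.7% and 39.7%. The median difference of the 18 with a mean of at least 5 FPKM was 1.51-fold.

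Of the dnaJ names past the 5 FPKM minimum, 3 differed at least 2-fold. DnaJ C22 (TRINITY_DN5626_c0_g1_i14), called Wurst in Drosophila and needed there for endocytosis, was at 8.16, 2.60 and 10.1 FPKM, 3.07-fold apart. DnaJ C2 (TRINITY_DN2468_c0_g1_i14), which sits at the ribosome exit with newly made proteins, was at 33.7, 19.7 and 44.4 FPKM. DnaJ C11 (TRINITY_DN2366_c0_g1_i4), a mitochondrial protein, was at 14.2, 11.1 and 24.6 FPKM. All were lowest in fly 2. After scaling, C2 and C11 were 1.47-fold and 1.43-fold apart and C22 2.28-fold, while C7 (2.05-fold), shv (2.18-fold) and dnaJ protein homolog 1 (2.02-fold) came to differ at least 2-fold.

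At the even end, dnaJ C17 (TRINITY_DN6724_c0_g1_i19) was at 4.99, 5.46 and 4.87 FPKM and dnaJ C25 (TRINITY_DN11523_c0_g1_i8) at 31.0, 28.6 and 27.2. Both were less even after scaling, at 1.55-fold and 1.56-fold. The endocytic dnaJ C13 name was carried by a pair of unigenes, TRINITY_DN19014_c0_g1_i1 at 8.50, 8.47 and 7.48 FPKM and TRINITY_DN2357_c0_g1_i4 at 3.41, 3.53 and 2.67. They matched 43.1% and 33.9% of their best hits, so they may be parts of 1 transcript.

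Peptidyl-prolyl isomerases, which speed a slow turn of the protein chain at proline, summed above the HSC70 names in each fly. As deposited, the 15 names summed to 1854, 1851 and 1918 FPKM in flies 1, 2 and 3, a 1.04-fold range. The range of this sum after scaling was not computed. The HSC70 names summed to 1839, 1413 and 1500 FPKM. Isomerase 6 (TRINITY_DN2957_c0_g1_i7) was at 1006, 1031 and 765 FPKM. An isomerase with no further name (TRINITY_DN2687_c0_g1_i5) was at 367, 424 and 566 FPKM. As deposited fly 3 was lowest for isomerase 6 and highest for the unnamed isomerase, and after scaling fly 2 was highest for both. Fkbp12 (TRINITY_DN81_c0_g1_i1), the target of the drugs FK506 and rapamycin, was at 214, 198 and 258 FPKM.

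By family, 5 FKBP names summed to 343, 290 and 434 FPKM, the parvulins dodo and NIMA-interacting 4 to 89.4, 71.7 and 101, and the 8 cyclophilin or unspecified names to 1421, 1489 and 1383. Only FKBP2 (TRINITY_DN4562_c0_g2_i2), of the endoplasmic reticulum, differed at least 2-fold among those with a mean of at least 5 FPKM, at 64.8, 52.2 and 108 FPKM. After scaling it was 1.37-fold apart, and isomerase 6 was 2.03-fold apart. The spliceosomal cyclophilins E and H (TRINITY_DN2628_c0_g1_i1 and TRINITY_DN12012_c0_g1_i4) averaged 22.6 ± 4.35 and 5.29 ± 1.98 FPKM (SD, n = 3).

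**Figure D4:**
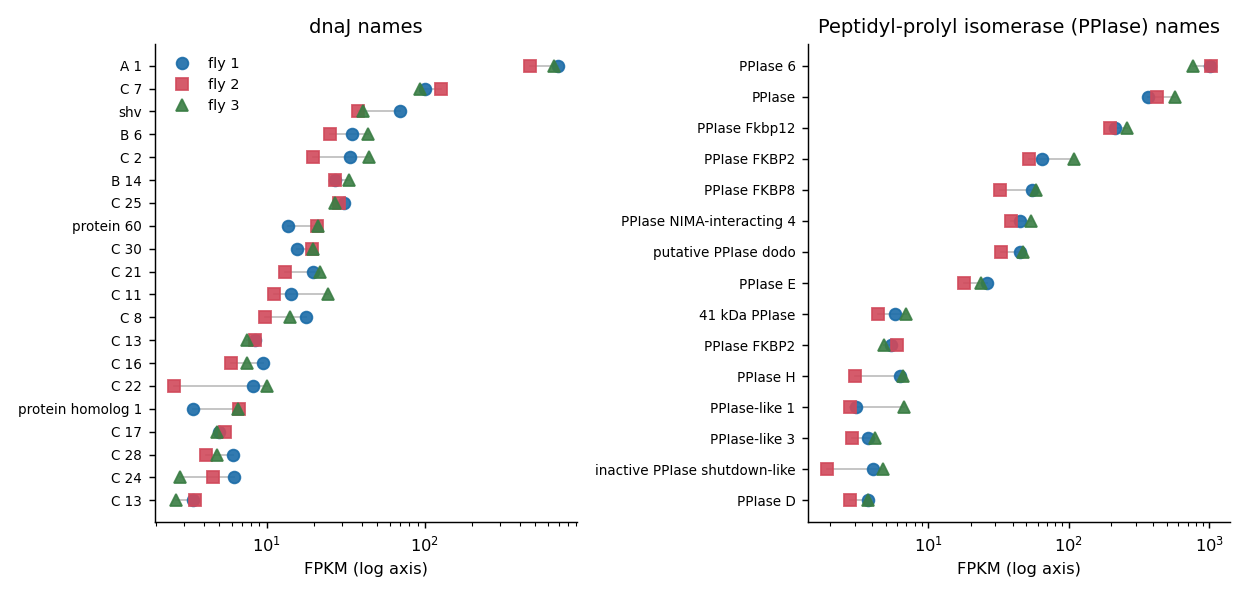
FPKM on a log axis of the 20 dnaJ names and the 15 peptidyl-prolyl isomerase names in flies 1, 2 and 3, ordered by mean level, with a grey line from the lowest to the highest fly. DnaJ A1 and isomerase 6 lead, with means of 604 and 934 FPKM, and most other members lie below 100 FPKM.

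Partners of the HSP70 and HSP90 machines were described from a list of pathway words outside the name rule, which matched 19 unigenes, 18 of them with a mean of at least 5 FPKM. Of these 18, 0 were at least 4-fold apart between flies, against 9.42% of unigenes, and 6 were at least 2-fold apart, against 30.3%. As deposited 16 of 19 were lowest in fly 2, against 57.5% of unigenes. After scaling 7 were lowest in fly 2 and 11 in fly 3, against 32.2% and 39.9% of unigenes.

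Stress-induced-phosphoprotein 1, which carries clients from HSP70 to HSP90, was at 136, 45.5 and 166 FPKM in flies 1, 2 and 3 for TRINITY_DN94_c0_g1_i1. The unigene TRINITY_DN94_c1_g1_i2 of the same name was at 90.6, 28.5 and 101. They aligned to residues 171 to 487 and 1 to 137 of their best hits, so they may be parts of 1 transcript. Cdc37 (TRINITY_DN3387_c0_g1_i4), a member by rule that loads protein kinases onto HSP90, was at 118, 61.3 and 139 FPKM. The ubiquitin ligase CHIP (TRINITY_DN3774_c0_g1_i8), which marks clients of HSP70 and HSP90 for degradation, was at 34.0, 16.9 and 55.3 FPKM. These partners shared the low value in fly 2 with HSP83 and HSP70-S1. As deposited their highest value lay in fly 3, and 45.1% of unigenes had that order. DnaJ C7, described above, went the other way, highest in fly 2 and lowest in fly 3, also after scaling. After scaling, both stress-induced-phosphoprotein 1 unigenes and Cdc37 were highest in fly 1, as HSP83 and HSP70-S1 were, and CHIP in fly 3.

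Most folding genes of the endoplasmic reticulum named here were highest in fly 1, against 21.6% of unigenes. Endoplasmin (TRINITY_DN1247_c0_g1_i1), the HSP90 of that compartment, was at 121, 36.9 and 74.6 FPKM in flies 1, 2 and 3, the same order as HSP83. BiP (TRINITY_DN2889_c0_g1_i28), its HSP70, which the words did not match and which was added after its values were seen, was at 631, 224 and 243 FPKM. Calreticulin (TRINITY_DN10848_c0_g1_i4), a chaperone of glycoproteins, was at 957, 667 and 610 FPKM. Protein disulfide-isomerase (TRINITY_DN25645_c0_g1_i10), which forms disulfide bonds, was at 896, 906 and 630 FPKM, highest in fly 2, and its relative A3 (TRINITY_DN1136_c0_g1_i3) at 222, 139 and 130. After scaling endoplasmin stayed lowest in fly 2 (32.2% of unigenes). BiP, calreticulin, protein disulfide-isomerase and A3 were then lowest in fly 3 (39.9% of unigenes). FKBP2 of the endoplasmic reticulum, described above, was highest in fly 3 as deposited and after scaling. In mitochondria the nucleotide exchange factor grpE (TRINITY_DN6078_c0_g1_i15) was even, at 115, 97 and 119 FPKM. Salivary gland names summed to 14150, 9596 and 10883 FPKM in flies 1, 2 and 3, with no name at 0, the order of HSP70-S1 and HSP83 as deposited. After scaling the sums were 14663, 11588 and 8697, lowest in fly 3, while HSP70-S1 and HSP83 stayed lowest in fly 2. The part of salivary gland RNA in these values was not tested.

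**Figure D5:**
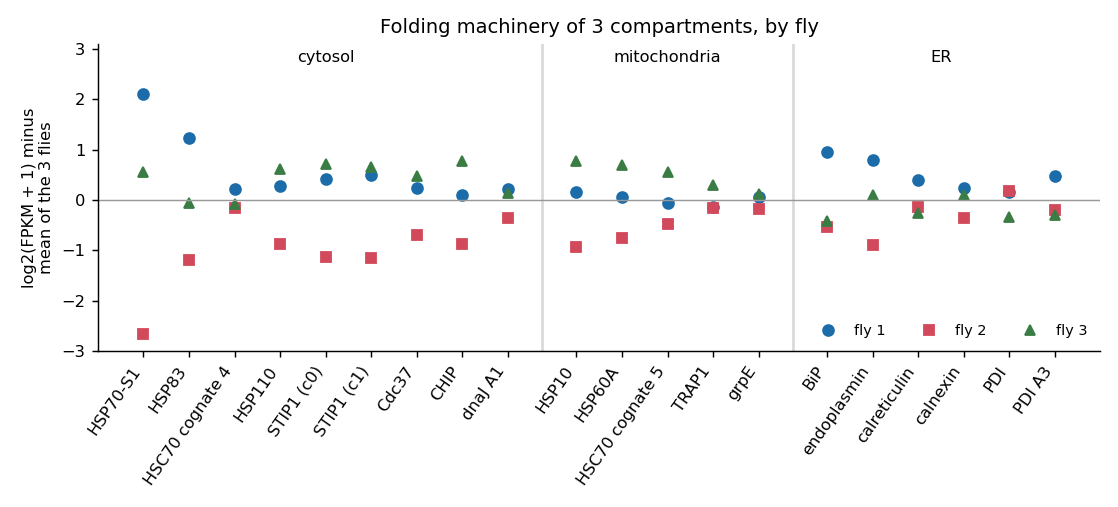
Level of each unigene in flies 1, 2 and 3, as log2(FPKM + 1) minus its mean over the 3 flies, for named folding genes of the cytosol, mitochondria and endoplasmic reticulum (ER). STIP1 (c0) and (c1) are the unigenes of stress-induced-phosphoprotein 1. HSP70-S1 spreads furthest. As deposited, fly 2 lies lowest for every cytosolic and mitochondrial gene shown, and for 57.5% of unigenes. After scaling, HSC70 cognate 4, dnaJ A1 and grpE are lowest in fly 3 and TRAP1 in fly 1. Some members not shown, such as dnaJ C7, dnaJ protein homolog 1 and prefoldin subunit 3, are highest in fly 2.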

How the data were processed

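RNA of 3 midguts, each from 1 female, was sequenced from KAPA RNA HyperPrep libraries of total RNA, per the labels' protocols. The deposited table gives FPKM, calculated by the authors for each unigene and fly, per the file headers. Percent identity to the best protein hit was also deposited, per the file headers. Assembler settings, aligner and counter are not named in these sources. The column of fly 3 carries the number 4 and was matched through that sample's description.

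From these values, log2(FPKM + 1), highest over lowest fly in FPKM + 1, shares of summed FPKM and ratios within a fly were computed with Python 3.11.15, numpy 2.4.6, pandas 2.3.3 and scipy 1.17.1, and plotted with matplotlib 3.10.9. Differences between flies were counted at 4-fold and 2-fold for a mean of at least 5 FPKM, and orders of flies for at least 1 FPKM. To recover reads, FPKM times length was divided by its smallest non-zero value in each library, taken as 1 read. The result was a whole number, within 0.001, for 97.1% to 97.3% of values. Counting errors treat 2 reads as 1 fragment and cover counting only. The scripts were tested on simulated data.

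With 1 group there was no contrast, and only 2 pairs of single unigenes were tested, by an exact sign-flip permutation test. Classes follow words in the names, and 4 members were placed by hand. Named genes were all HSP70, small HSP, HSC70, HSP90 and HSP110 members and the heat shock factor, the 3 most abundant of each other class, members at least 4-fold apart, and the 3 most and 3 least different T-complex subunits. Other genes named were chosen after their values were seen. Members, classes and lists were chosen with earlier results of these data known. Alternatives changed the scaling, pseudocount (0.1), filter, class definition, name rule and flies. Unigene sequences were not used here.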

Additional observations from a re-analysis of the deposited data

How the results depend on the processing

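Of the alternatives to summary results, 48 kept the value within the SD between flies or 1.5 times a count, or kept its side of the test, 14 did not and 1 reversed it. Some of the 48 were fixed in advance. Scaling cancels in a ratio within a fly, and the exact sign-flip permutation p could not fall below 0.25. Of those to single unigenes, 125 kept the unigene on its side of 4-fold, whatever the size of the move, and 5 took it below. All 5 were for HSP70-S1, HSP70-S4 or HSP83 with fly 1 or fly 2 left out. Leaving out a fly can only narrow a range, so it could not take a unigene from below 4-fold past it. Part of the 125 was thus fixed in advance. The inducible to constitutive log2 ratio was -1.96 with the median member of each class and -8.35 without the most abundant member of each, beside -5.25, and from -6.14 to -4.23 with each fly left out. The members' share was 1.49% of recovered reads and 1.78% of FPKM without the 10 most abundant unigenes, beside 1.21%. Median-of-ratios scaling put 29, 20 and 14 members highest in flies 1, 2 and 3, beside 15, 8 and 40. It moved their median shift to -0.089 in fly 2 and reversed it to -0.037 in fly 3, beside 0.40. With that scaling 17 members, beside 11, were highest in fly 1 and lowest in fly 2, and 28, beside 47, were lowest in fly 2. These last counts, the 2-fold counts and the HSP83 and 67B2 alternatives were added after seeing the data. Leaving out each fly in turn gave 0 to 2 members at least 4-fold apart and 2 to 13 at least 2-fold apart, against 3.08% to 7.77% and 8.95% to 26.6% of unigenes. Both counts were lowest without fly 2, at 0 and 2, against 5.45% and 17.1% of unigenes. Fewer flies can only narrow a range, whichever fly is left out. The cause of the moves was not tested. The name rule applied to any listed title found the same number of members, 63. No paired analysis was possible because there is 1 group. Unigenes with few reads, such as HSP70-S4 with 10 reads in fly 2, limit what depth can show.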

Other observations

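Among the 39 unigenes at least 4-fold apart and highest in fly 1, all but HSP70-S1 and HSP83 had names outside protein folding or no name. This list was looked at after its values were seen. A unigene whose best hit is a venom polypeptide of a robber fly (TRINITY_DN7548_c0_g1_i8) was at 1472, 19.9 and 285 FPKM in flies 1, 2 and 3, the same order of flies as HSP70-S1. Beta-galactosidase (TRINITY_DN36559_c0_g1_i49), a sugar-cleaving enzyme, was at 67.7, 0.224 and 1.90 FPKM. Protein takeout (TRINITY_DN9805_c0_g1_i2), linked to feeding and the clock in Drosophila, was at 68.8, 0.632 and 1.86 FPKM. Adenosine deaminase 2 (TRINITY_DN4009_c0_g1_i3), which removes an amino group from adenosine, was at 137, 28.8 and 47.6 FPKM. Only 25 of the 39 were lowest in fly 2, as these named unigenes were, and the rest were lowest in fly 3. Among the rest, a second venom polypeptide name (TRINITY_DN334_c0_g1_i5) was at 1449, 1142 and 134 FPKM. A second beta-galactosidase name (TRINITY_DN729_c0_g1_i11) was at 157, 77.8 and 34.0 FPKM.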
